A study of Mus musculus with 20 samples.

Results

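The genes described here are 10 genes of fibroblast growth factor (FGF) signalling, namely the ligands Fgf4, Fgf8 and Fgf15, the receptors Fgfr1 and Fgfr2, the feedback inhibitors Spry2, Spry4 and Dusp6, and the ETS transcription factors Etv4 and Etv5. They were taken by symbol from the 46939 genes of the expression table, where all 10 were present and had a mean level of at least 1 FPKM (fragments per kilobase of transcript, corrected for the size of each library), the filter that left 12035 genes for testing. The series compared mouse embryonic stem cells of strain background 129 that lacked thymine DNA glycosylase (TDG KO) with wild-type cells (WT). TDG is the enzyme that excises oxidised forms of methylated cytosine, and the series asked how one of them, 5-carboxylcytosine, bears on binding of the chromatin protein CTCF. Polyadenylated RNA was sequenced in 2 TDG KO and 2 WT libraries, and CTCF-bound DNA in 2 TDG KO and 2 WT libraries. Cells of both genotypes were grown in medium with serum and LIF on mitotically arrested mouse embryonic fibroblasts, which were depleted by repeated plating before use, and the medium as described names no inhibitor of the FGF pathway. The labels do not say whether each genotype is 1 clone, nor whether replicates were separate cultures. The p-values therefore reflect the scatter of these libraries alone, and that scatter may be technical.

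FGFs are secreted proteins that bind receptor tyrosine kinases together with heparan sulfate on the cell surface. The activated receptors signal through RAS to the kinase ERK, which switches on ETS factors and, among its targets, the Sprouty proteins and dual-specificity phosphatases that dampen the same cascade. In mouse embryonic stem cells FGF4 is the FGF known to act on the cells that make it, and ERK signalling prepares the cells to leave the pluripotent state, while in the blastocyst it directs inner cells towards primitive endoderm.

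The genotypes and the cell type were checked first. RNA of Tdg amounted to 5.50 and 4.74 FPKM in TDG KO and 28.1 and 30.4 FPKM in WT (log2 change -2.31, limma with Benjamini-Hochberg adjustment, adjusted p = 9.21e-06). All 12 pluripotency markers passed the level filter in these libraries. Of these, 3 rose, 6 fell and 3 did not pass the test (median log2 change -0.18). Pou5f1, which encodes the pluripotency factor OCT4, held 996 and 1094 FPKM in TDG KO against 1509 and 1572 FPKM in WT (log2 change -0.56), while the log2 changes of Tdgf1 and Zfp42 were both -0.18 and did not pass the test. RNA of fibroblast markers was detected in every library. The 24 fibroblast markers summed to 751 and 826 FPKM in TDG KO and to 984 and 729 FPKM in WT. Vim was the largest single part of each sum. None of the 24 was at 0 in all libraries, and for all 24 the level in WT replicate 1 exceeded that in WT replicate 2. Replicate libraries correlated across genes at 0.989 in TDG KO and 0.989 in WT, and libraries of different genotype at 0.955 to 0.960, where genes are not independent replicates. Throughout, a lower or higher level in such bulk RNA cannot be told apart from fewer or more cells of the type that makes it.

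Among the 10 genes, Fgf8 and Fgfr2 rose in TDG KO cells, Fgf4, Spry2 and Dusp6 fell, and Fgf15, Fgfr1, Spry4, Etv4 and Etv5 did not pass the test. A count of 5 called genes among 10 is close to the 54% of all 12035 tested genes that were called. By direction, 20% of the 10 genes rose and 30% fell, against 24.4% and 29.5% of all tested genes. The median log2 change of the 10 genes was -0.03, and that of all tested genes was -0.04. The libraries of the genotypes did not overlap for 7 of the 10 genes, whereas 78.8% of all tested genes had no overlap. As a set the 10 genes therefore differed between the genotypes about as often as other genes did, and the results below concern which of them differed and by how much.

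Promoter sequences show where the genes whose RNA differed stand in CpG content, the substrate of cytosine methylation and oxidation, although neither was measured in the files used here. RefSeq promoters (GRCm38.p6, the assembly of mm10) were examined for 5 of the 10 genes, and those of the other genes were not examined. The 250 bases before the start are printed 5′ to 3′ with each CpG pair in capitals. They are given for the 3 genes that fell and for Fgfr2, which rose.
Fgf4 promoter (chr7:144861136-144861385, + strand): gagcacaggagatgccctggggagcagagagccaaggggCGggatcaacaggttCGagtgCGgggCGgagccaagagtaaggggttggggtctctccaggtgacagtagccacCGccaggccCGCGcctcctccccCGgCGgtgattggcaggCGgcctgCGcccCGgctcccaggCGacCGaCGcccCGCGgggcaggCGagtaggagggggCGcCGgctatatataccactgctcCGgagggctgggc
Spry2 promoter (chr14:105896820-105897069, - strand): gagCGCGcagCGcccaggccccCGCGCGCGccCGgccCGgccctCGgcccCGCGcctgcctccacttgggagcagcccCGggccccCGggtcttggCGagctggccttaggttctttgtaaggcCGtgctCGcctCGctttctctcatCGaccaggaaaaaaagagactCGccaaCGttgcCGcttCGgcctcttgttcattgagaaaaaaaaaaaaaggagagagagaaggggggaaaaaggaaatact
Dusp6 promoter (chr10:99262981-99263230, + strand): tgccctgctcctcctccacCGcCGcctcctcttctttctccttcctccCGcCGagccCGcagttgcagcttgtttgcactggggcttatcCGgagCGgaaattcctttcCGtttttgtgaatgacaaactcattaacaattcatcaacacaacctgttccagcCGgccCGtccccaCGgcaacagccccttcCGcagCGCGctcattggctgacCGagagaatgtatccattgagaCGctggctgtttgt
Fgfr2 promoter (chr7:130266809-130267058, - strand): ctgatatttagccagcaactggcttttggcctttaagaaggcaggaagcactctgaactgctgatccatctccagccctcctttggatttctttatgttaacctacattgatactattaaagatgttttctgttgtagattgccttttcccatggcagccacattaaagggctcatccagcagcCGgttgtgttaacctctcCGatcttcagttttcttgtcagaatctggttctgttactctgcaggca

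The Fgf4 promoter held 21 CpG pairs in 250 bases, that of Spry2 held 23 and that of Dusp6 held 16, against a median of 6 over 32817 promoters. They ranked at the 83.7th, 86.7th and 74.6th percentile. The Fgfr2 promoter held 2 pairs, at the 18.8th percentile. Its GC content was 44%, against 71.2% for Fgf4, 62.4% for Spry2, 56.4% for Dusp6 and a median of 52.4% over all promoters. The 2 Etv5 promoters, whose gene did not pass the test, held 27 and 18 pairs, so a high CpG count was found at genes that fell and at a gene that was not called. On both strands, 4 sets of letters were searched. GGGCGG, the GC box, was found 2 times in the Fgf4 promoter and occurs in 32.7% of all promoters. AGGGGGC, part of the CTCF motif, was found 1 time there and occurs in 9.43%, and it does not overlap either GC box. CCGGAAG, an ETS motif found in 6.9% of all promoters, and TATAAA, found in 12.4%, were in none of the 4 windows printed. A match is a description of letters, not a bound site.

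**Figure D1:**
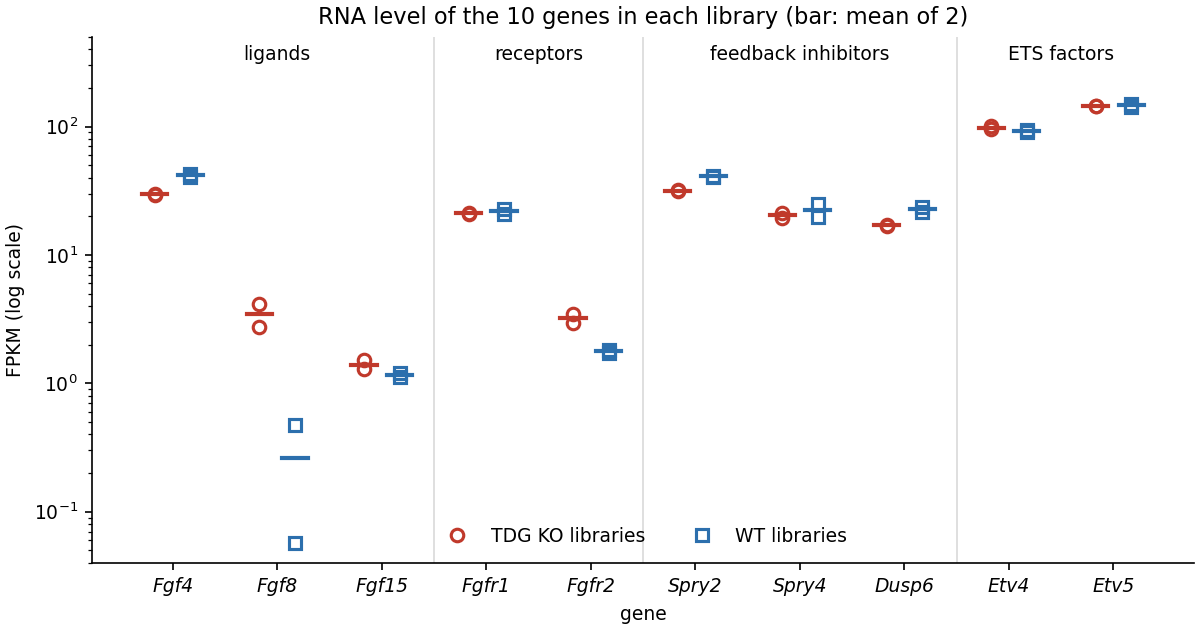
FPKM on a log axis of the 10 genes in each library, with TDG KO libraries left of WT libraries and a bar at the mean of the 2 libraries. Etv5 and Etv4 are highest in both genotypes, and Fgf8 stands at 2.76 and 4.18 FPKM in TDG KO, above its 0.471 and 0.0567 FPKM in WT.

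In TDG KO cells the order of levels per transcript length, in FPKM, began with Etv5 at 144.0 ± 1.18, Etv4 at 97.7 ± 3.29, Spry2 at 31.6 ± 0.206 and Fgf4 at 29.6 ± 0.191 (SD, n = 2). In WT cells it began with Etv5 at 145.8 ± 5.54 and Etv4 at 92.5 ± 1.70, followed by Fgf4 at 41.6 ± 1.14 and Spry2 at 40.9 ± 0.687 FPKM. Neighbours in the order whose libraries overlapped were Fgfr1 and Spry4, and Fgf8 and Fgfr2, in TDG KO. In WT they were Fgf4 and Spry2, Dusp6 and Spry4, and Spry4 and Fgfr1. Fgf8 ranked above Fgfr2 and Fgf15 by its mean in TDG KO and was the lowest of the 10 genes in WT.

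Fgf4 (ENSMUSG00000050917, chr7:144861386-144865245), the main FGF made by pluripotent cells, held 29.5 and 29.7 FPKM in TDG KO and 40.8 and 42.4 FPKM in WT. Both TDG KO libraries lay below both WT libraries, and replicates of a genotype lay close together. The log2 change was -0.48 on the log2(FPKM + 1) scale (SE 0.0594, 95% confidence interval -0.62 to -0.33, limma adjusted p = 0.000882). In the authors' deposited table, whose log2 values were turned to TDG KO over WT, Fgf4 had a log2 change of -0.49 and a q-value of 0.00482.

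Fgf8 (ENSMUSG00000025219, chr19:45736491-45742941), a ligand that patterns the gastrulating embryo and the early brain, held 2.76 and 4.18 FPKM in TDG KO and 0.471 and 0.0567 FPKM in WT. Both TDG KO libraries were above both WT libraries, and the WT libraries were themselves far apart in proportion. The log2 change was 1.82 (SE 0.207, 95% confidence interval 1.33 to 2.32, limma adjusted p = 0.000611), a size exceeded by few tested genes, since its absolute change ranked at the 98.7th percentile. Because the pseudocount of 1 FPKM exceeds the WT level, this scale understates the difference. The ratio of mean FPKM was 13.1, but it was 7.36 without WT replicate 2 and 61.2 without WT replicate 1, so its size rests on which WT library is used. The log2 change was 3.55 with a pseudocount of 0.1 and 4.25 with 0.01, and the authors' deposited table gave 3.72 (q-value 0.000468).

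Markers of primed epiblast, mesoderm and neural cells are given beside Fgf8, and they moved in both directions. The shares of all tested genes that rose and fell were 24.4% and 29.5%. The 10 markers of primed epiblast summed to 107 and 114 FPKM in TDG KO against 52.1 and 55.1 FPKM in WT, and of the 8 tested 6 rose and 2 fell (median log2 change 1.09). Cldn6, a tight junction protein, had a log2 change of 1.44, the DNA methyltransferase Dnmt3b of 1.05 and the kinase Pim2 of 1.40. The 2 that fell were the transcription factors Otx2 (-0.84) and Sox3 (-0.50), named after their values were seen. The 10 mesoderm markers summed to 11.8 and 12.9 FPKM in TDG KO and 5.70 and 5.63 FPKM in WT, of which 2 were tested. T, the mesoderm factor brachyury, rose by 1.80 on the log2 scale, and Eomes fell by 0.64, while Wnt3, at 1.70 and 1.61 FPKM in TDG KO and 0.147 and 0.166 FPKM in WT, was under the filter. Tested or not, 5 of the 10 mesoderm markers lay higher and 3 lower in both TDG KO libraries than in both WT libraries. By the same measure 8 of the 10 primed epiblast markers lay higher and 2 lower. Of the 10 neural markers 7 lay higher and 1 lower. Of all tested genes 78.8% had no such overlap. The 10 neural markers summed to 66.2 and 73.0 FPKM in TDG KO and 19.7 and 19.5 FPKM in WT, and all 4 tested rose, among them Nes (1.68), Pax6 (0.58) and Tubb3 (1.90). Tubb3, which made up most of the neural sum, was not significant in the authors' deposited table (q-value 0.563). Sox1, an early neural factor under the filter that was named after its values were seen, held 0.169 and 0.174 FPKM in TDG KO against 0.561 and 0.576 FPKM in WT. No marker of these 3 lists was at 0 in every library, Dcx and Hes5 were listed at 0 in both WT libraries, and their part in the difference of Fgf8 was not tested.

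By a fixed measure of likeness, the Euclidean distance between log2(FPKM + 1) profiles centred on their mean over the 4 libraries, the tested genes nearest to Fgf8 were Gm24616 (distance 0.0955), Gm20431 (0.163) and Pkdcc (0.228). Pkdcc, a secreted kinase, held 7.93 and 8.96 FPKM in TDG KO against 2.21 and 1.16 FPKM in WT. With 4 libraries such a profile holds little beyond the difference between genotypes.

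Fgf15 (ENSMUSG00000031073, chr7:144896532-144900953), the mouse counterpart of human FGF19 and a regulator of bile acid synthesis in the adult, held 1.51 and 1.29 FPKM in TDG KO and 1.21 and 1.12 FPKM in WT. The libraries of the genotypes did not overlap, but the difference did not pass the test (log2 change 0.15, 95% confidence interval -0.11 to 0.41, limma adjusted p = 0.286).

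The composition of the summed FGF RNA differed with these changes. The 22 FGF genes of the table, from Fgf1 to Fgf23, summed to 55.3 and 58.0 FPKM in TDG KO and to 63.6 and 64.0 FPKM in WT. They include intracellular homologues such as Fgf13, with 3.38% and 3.06% of the sum in TDG KO and 0.818% and 0.892% in WT. Fgf4 made up 53.3% and 51.3% of that sum in TDG KO, against 64.0% and 66.2% in WT. Fgf8 made up 4.99% and 7.21% in TDG KO and 0.741% and 0.0886% in WT. Fgf17, a close relative of Fgf8, stood second, with 22.2% and 23.3% in TDG KO and 18.6% and 16.5% in WT. Its own level, 12.3 and 13.5 FPKM in TDG KO against 11.8 and 10.6 FPKM in WT, did not pass the test (log2 change 0.19, limma adjusted p = 0.102), and it was named after its values were seen.

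**Figure D2:**
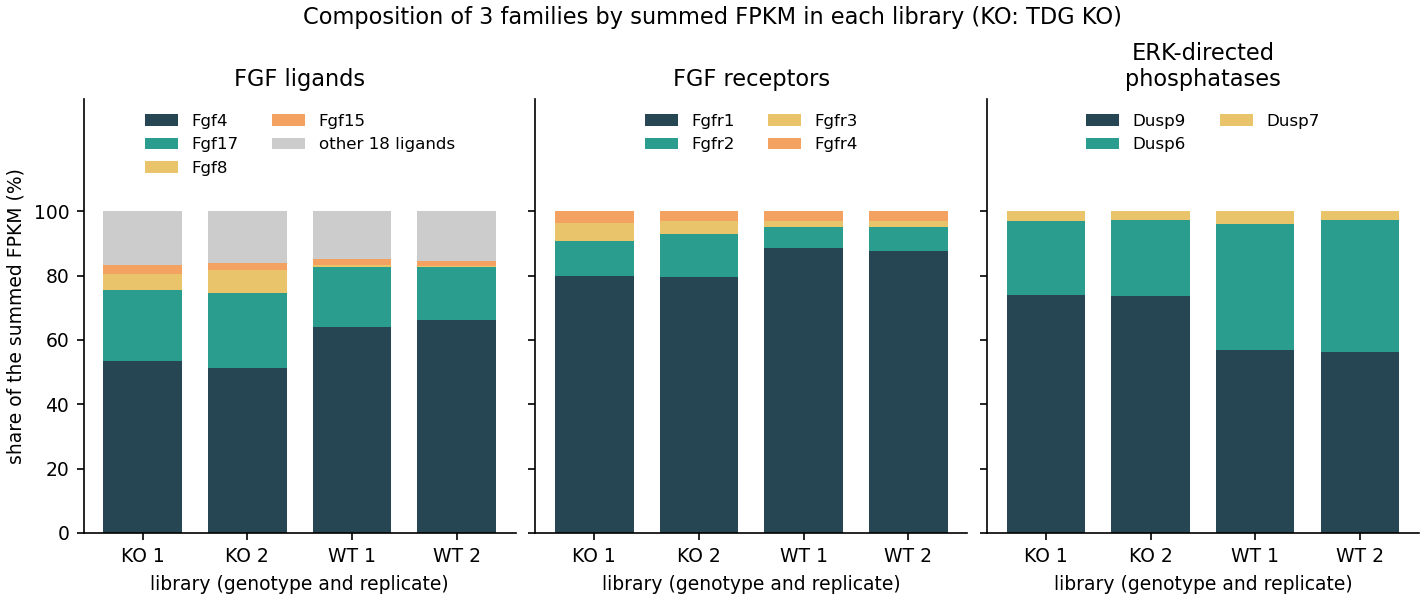
Share of summed FPKM taken by each gene of the FGF ligands, FGF receptors and ERK-directed phosphatases in each library, TDG KO on the left and WT on the right of each panel. The ligand panel sums all 22 genes from Fgf1 to Fgf23, intracellular homologues included. Fgf4 takes 53.3% and 51.3% of the ligand sum in TDG KO against 64.0% and 66.2% in WT, and Dusp6 takes 23.1% and 23.8% of the phosphatase sum in TDG KO against 39.3% and 41.0% in WT.

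Fgfr1 (ENSMUSG00000031565, chr8:25518759-25575718), the main FGF receptor of these cells, held 21.3 and 20.9 FPKM in TDG KO and 22.7 and 21.0 FPKM in WT. The groups overlapped, and the log2 change of -0.05 had a 95% confidence interval from -0.21 to 0.11 (limma adjusted p = 0.570). Fgfr2 (ENSMUSG00000030849, chr7:130162451-130266808), the receptor gene known from primitive endoderm and epithelia, held 2.94 and 3.46 FPKM in TDG KO and 1.73 and 1.83 FPKM in WT. Both TDG KO libraries were above both WT libraries, with a log2 change of 0.59 (SE 0.102, 95% confidence interval 0.35 to 0.84, limma adjusted p = 0.00328).

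The Fgfr2 call depended on the test. The authors' deposited table gave a log2 change of 0.85 with a q-value of 0.418, which is not significant. That table places Fgfr2 in a merged locus of 2962 kb that it gives also for 44 other genes, where RefSeq gives a gene of 104 kb. The same table gives Fgf15 and Fgfr1 a locus shared with 1 other gene each, and Spry4 a locus shared with 2. How reads were assigned within shared loci is not stated. Of 12 primitive endoderm markers 4 were tested, 2 rose and 0 fell. Lamb1, a basement membrane laminin, had a log2 change of 0.36 and passed, whereas Dab2 (0.11) and Col4a1 (-0.33) did not. The other one that rose was Lrp2 (0.90), an endocytic receptor. The lineage factors Gata6, Gata4 and Sox7 and the receptor Pdgfra were under the filter and lay lower in both TDG KO libraries than in both WT libraries, and in the authors' deposited table Pdgfra (q-value 0.000468) and Sox7 (q-value 0.0158) were significantly lower. Tested or not, 5 of the 12 markers lay higher and 5 lower in TDG KO without overlap, beside 78.8% of all tested genes without overlap. Lrp2 and these 4 genes were named after their values were seen. The sums of the 12 markers were 48.9 and 45.7 FPKM in TDG KO against 47.6 and 37.8 FPKM in WT and overlapped. None of the 12 was at 0 in every library, and their part in the Fgfr2 difference was not tested.

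Fgfr1 was the largest part of the summed receptor RNA, with 79.8% and 79.7% in TDG KO and 88.5% and 87.5% in WT. Fgfr2 took 11.0% and 13.2% in TDG KO against 6.74% and 7.63% in WT. Fgfr3, which lay under the filter, took 5.72% and 4.04% in TDG KO against 1.92% and 1.75% in WT. The sum over the 4 receptor genes was 26.7 and 26.2 FPKM in TDG KO and 25.7 and 23.9 FPKM in WT.

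Spry2 (ENSMUSG00000022114, chr14:105891947-105896819), a Sprouty protein that blocks signalling between receptor and RAS, held 31.5 and 31.7 FPKM in TDG KO against 40.4 and 41.4 FPKM in WT. Its groups did not overlap, and it fell by 0.36 on the log2 scale (SE 0.0581, 95% confidence interval -0.50 to -0.22, limma adjusted p = 0.00243; q-value 0.0471 in the authors' deposited table). Spry4 (ENSMUSG00000024427, chr18:38586247-38601347), a second Sprouty, held 21.2 and 19.4 FPKM in TDG KO and 19.8 and 24.98 FPKM in WT. Its groups overlapped, the WT replicates differed more than the genotypes did, and the log2 change of -0.13 (95% confidence interval -0.39 to 0.13, limma adjusted p = 0.356) changed sign with the WT library used, from -0.29 without WT replicate 1 to 0.03 without WT replicate 2.

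Dusp6 (ENSMUSG00000019960, chr10:99263231-99267489), the cytoplasmic phosphatase that removes the activating phosphates of ERK, held 16.9 and 17.1 FPKM in TDG KO and 21.6 and 23.6 FPKM in WT. Both TDG KO libraries were below both WT libraries, and Dusp6 fell by 0.40 on the log2 scale (SE 0.0692, 95% confidence interval -0.56 to -0.23, limma adjusted p = 0.00347; q-value 0.0192 in the authors' deposited table). Its relative Dusp9, an X-linked phosphatase of the same subfamily that was named after its values were seen, went the other way, with 54.0 and 52.8 FPKM in TDG KO against 31.3 and 32.4 FPKM in WT (log2 change 0.73, limma adjusted p = 0.000172). Dusp6, Dusp7 and Dusp9 together summed to 73.0 and 71.7 FPKM in TDG KO and 55.1 and 57.6 FPKM in WT, and the share of Dusp6 in that sum was 23.1% and 23.8% in TDG KO against 39.3% and 41.0% in WT. The summed RNA of this phosphatase subfamily was thus higher in TDG KO while that of Dusp6 was lower.

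Etv4 (ENSMUSG00000017724, chr11:101769747-101785310), an ETS factor of the PEA3 group that is a transcriptional target of FGF signalling in many tissues, held 95.4 and 100.1 FPKM in TDG KO and 93.7 and 91.3 FPKM in WT. The groups did not overlap, but the log2 change of 0.08 did not pass the test (95% confidence interval -0.07 to 0.22, limma adjusted p = 0.308). Etv5 (ENSMUSG00000013089, chr16:22381313-22439570), its closest relative, held 144.8 and 143.2 FPKM in TDG KO and 141.9 and 149.7 FPKM in WT. The groups overlapped, and the log2 change of -0.02 had an interval from -0.16 to 0.13 (limma adjusted p = 0.829). For both genes a log2 difference beyond 0.22 in either direction lies outside the interval. The third PEA3 gene, Etv1, named after its values were seen, fell by 0.55 on the log2 scale, with 3.88 and 4.04 FPKM in TDG KO against 6.11 and 6.40 FPKM in WT, and it made up 1.59% and 1.63% of the summed RNA of the 3 genes in TDG KO and 2.53% and 2.59% in WT.

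**Figure D3:**
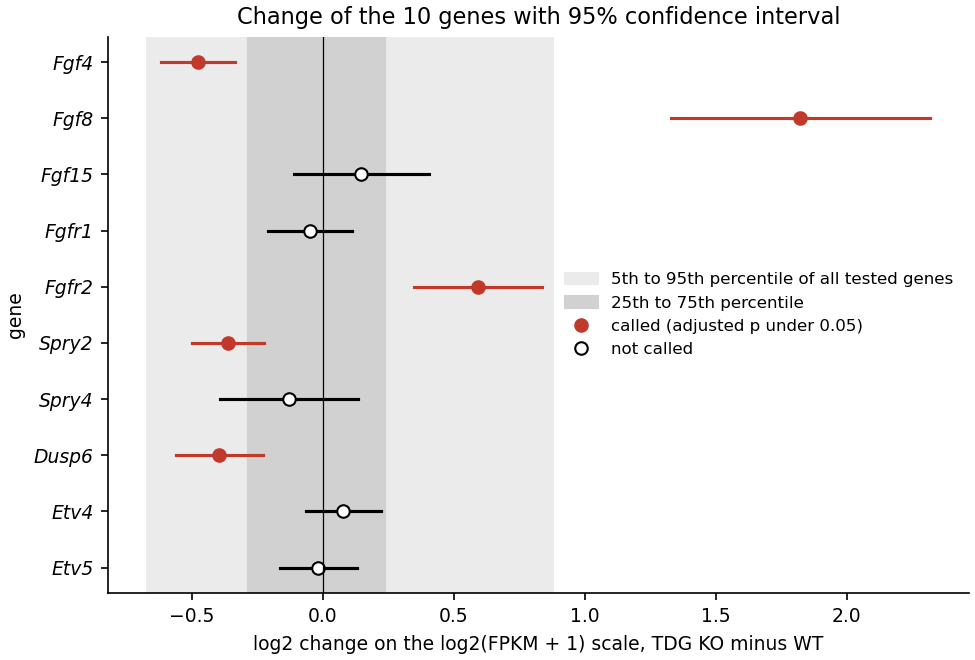
Log2 change of the 10 genes on the log2(FPKM + 1) scale, TDG KO minus WT, with 95% confidence intervals as lines and filled points where the adjusted p was under 0.05. Shaded bands span the 5th to 95th and the 25th to 75th percentile of all 12035 tested genes, and Fgf8 at 1.82 lies outside both bands.

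The changes of Fgf4, Spry2 and Dusp6 were modest beside those of other genes. The 5th and 25th percentiles of the log2 change over all tested genes were -0.67 and -0.29, and all 3 genes lay between them. Fgfr2, at 0.59, lay between the 75th percentile of 0.24 and the 95th of 0.88.

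Other genes of the pathway are given from 5 lists that do not include the 10 genes. The table held 122 of the listed genes, and 94 were tested, of which 25 rose (26.6%), 24 fell (25.5%) and 45 did not pass the test, with a median log2 change of 0.04. Both shares are near those of all tested genes given above.

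Among the 21 further ligands and FGF-binding proteins 8 were tested, of which 2 rose, 3 fell and 3 did not pass (median 0.14). Fgfbp1, a carrier that releases FGFs from heparan sulfate, held 19.3 and 18.4 FPKM in TDG KO and 8.56 and 9.61 FPKM in WT (log2 change 0.98, limma adjusted p = 0.000159). Fgf13, an intracellular FGF homologue, rose by 0.87 on the log2 scale. Fgf7 and Fgf10, which mesenchymal cells secrete towards epithelia, fell by 0.79 and 0.45, and Flrt2, a membrane protein of a family that binds FGF receptors, fell by 0.52. Each of these 3 calls was lost in at least 1 setting. Fgf7 had a q-value of 0.577 in the authors' deposited table, where Fgf10 (q-value 0.000873) and Flrt2 (q-value 0.000468) were significantly lower. The Fgf10 call was lost when the second TDG KO library was dropped, with a log2 change of -0.40. That of Flrt2 was lost when the first or the second was dropped, with log2 changes of -0.54 and -0.49. Such fits leave 1 library in the TDG KO group. Fibroblast markers moved the same way as these 3 genes, with 13 of 22 tested lower and 2 higher (median -0.61). Among the most abundant of them Fn1 fell by 0.75 on the log2 scale, but Vim rose by 0.58 and Tagln by 0.85. The marker sums of the genotypes overlapped as given above, but Vim was the largest single part of each sum. Vim held 318 and 354 FPKM in TDG KO against 248 and 204 FPKM in WT, opposite to most of the tested markers. The part of fibroblast RNA in the changes of Fgf7, Fgf10 and Flrt2 was not tested. Of the 8 further receptors and co-receptors 3 were tested and 1 rose, Fgfrl1, a receptor without a kinase domain, at 4.19 and 4.09 FPKM in TDG KO against 2.73 and 2.57 FPKM in WT (log2 change 0.50). Flrt2 was the 1 that fell (median -0.02). Of those under the filter, Fgfr3 and the co-receptor Klb (log2 change 1.02, q-value 0.0142) were significantly higher in the authors' deposited table. Fgfr4 (q-value 0.522) was not.

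Among 27 heparan sulfate proteoglycans and enzymes 21 were tested, of which 2 rose, 7 fell and 12 did not pass (median -0.08). The glypicans Gpc3 and Gpc4, membrane-anchored heparan sulfate carriers encoded side by side on the X chromosome, went in opposite directions. Gpc3 held 47.2 and 47.3 FPKM in TDG KO and 23.9 and 22.0 FPKM in WT (log2 change 1.01), and Gpc4 held 20.8 and 21.0 FPKM in TDG KO and 32.4 and 31.0 FPKM in WT (-0.58). Ext2, a polymerase of heparan sulfate chains, fell by 0.47 on the log2 scale and Sulf1, a sulfatase that trims them, by 0.43.

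Of 31 genes of the RAS-ERK cascade 29 were tested, of which 7 rose, 7 fell and 15 did not pass (median -0.02). Mras, a RAS relative that works with SHOC2 to activate RAF, held 38.8 and 40.1 FPKM in TDG KO against 102 and 110.0 FPKM in WT (log2 change -1.41, limma adjusted p = 1.82e-05). Rps6ka3, an X-linked kinase activated by ERK, held 8.40 and 8.03 FPKM in TDG KO and 26.7 and 28.8 FPKM in WT (log2 change -1.64, limma adjusted p = 1.56e-05). Of 23 tested genes within 5 Mb of Rps6ka3 17 fell, with a median log2 change of -1.36, and the part of that neighbourhood was not tested. Rps6ka2 fell by 0.51, and Gab1, a docking protein below the receptors, rose by 0.49.

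The list of ERK feedback and target genes, apart from the 10, had 36 genes, of which 35 were in the table and 33 were tested. Of these 13 rose (39.4%), 6 fell (18.2%) and 14 did not pass, with a median log2 change of 0.17. Of all tested genes 24.4% rose and 29.5% fell, with a median of -0.04, and the list was not tested as a set. The largest increases were those of 4 phosphatases, Dusp2 (log2 change 1.03), Dusp4 (0.94), Dusp5 (0.92) and Dusp1 (0.80), most of them induced by growth factors or stress and acting on ERK or related kinases in the nucleus. Dusp4, for instance, held 8.47 and 8.36 FPKM in TDG KO against 3.86 and 3.97 FPKM in WT. The early response genes Egr1 (0.54), Fos (0.69), Myc (0.62), Fosb (0.40) and Ier2 (0.33) also rose. Egr2 (0.22), Ier3 (0.17) and Ier5 (0.21) were not called. The other genes of the list that rose were Dusp9 (0.73), Epha4 (0.72), Phlda1 (0.69) and Phlda2 (0.50). The 6 that fell were Etv1 (-0.55), Spred1 (-0.46), Ccnd1 (-0.38), Elk3 (-0.32), Elk4 (-0.30) and Epha2 (-0.21). These early response genes, the other genes that rose and the genes that fell were named after their values were seen. Genes known as ERK feedback or target genes thus stood on both sides. Spry2, Dusp6 and the 6 genes just named were lower, and Etv4 and Etv5 were not called. Higher were the 4 phosphatases, the early response genes that rose and the other genes of the list that rose, 13 in all.

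**Figure D4:**
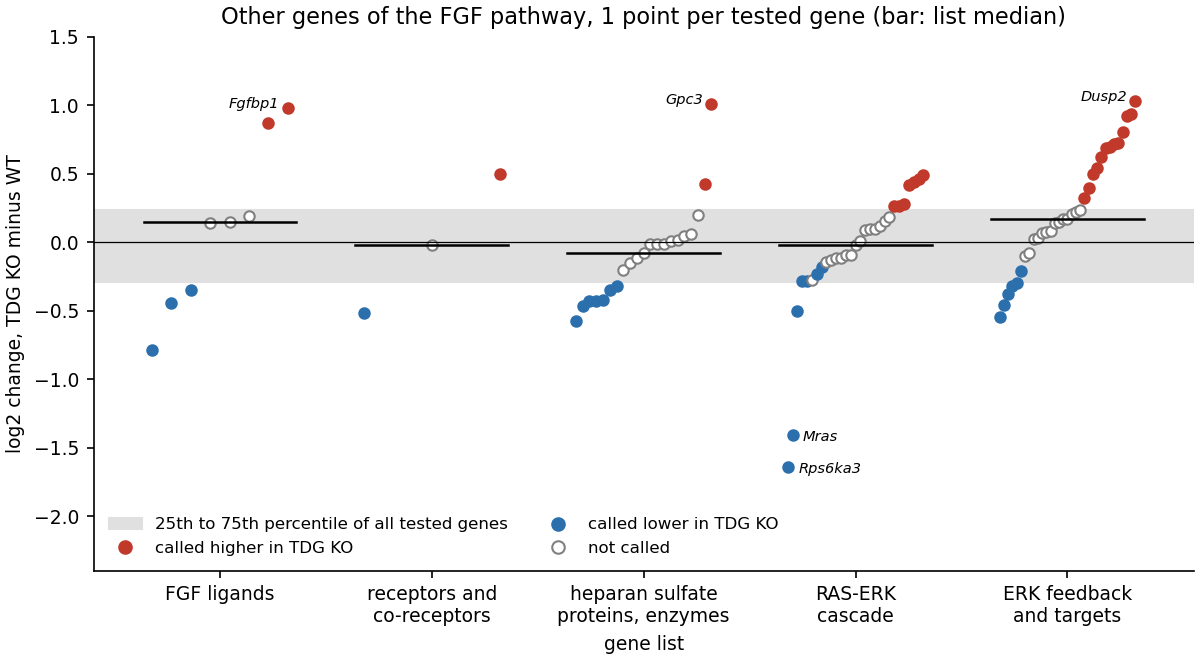
Log2 change of each tested gene of 5 FGF pathway lists, TDG KO minus WT, sorted within each list, with a bar at the list median and a band from the 25th to the 75th percentile of all tested genes. Red points were called higher and blue points lower in TDG KO, and Rps6ka3 (-1.64) and Mras (-1.41) lie lowest.

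Most CTCF regions near the 10 genes were called in all 4 libraries. Regions were merged over the 4 peak lists, which held 48514 and 48833 peaks in TDG KO and 38303 and 37099 peaks in WT, and those in or within 50 kb of a gene were counted. Of 50 such regions 33 (66%) were in all 4 lists, 6 (12%) in both TDG KO lists and no WT list, 0 in both WT lists and no TDG KO list, and 11 (22%) in another combination. Over all 54729 regions the shares were 59.8%, 10.8%, 0.17% and 29.3%. The TDG KO lists were the longer ones. With the same number of strongest peaks taken from each list, the counts were 0 TDG KO-only and 1 WT-only regions. With 2 lists a genotype an exact permutation test cannot go below p = 0.333, so no test was made.

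The TDG KO-only regions lay at 5 of the 10 genes, and 43.0% of tested genes with a position had at least 1 within 50 kb. Fgfr2 had 2, which lay 11.1 and 47.5 kb from its end at higher coordinates. Fgf8 had 1, at chr19:45717562-45717752, 18.7 kb from the gene, and its authors' scores ranked at percentiles 6.04 and 13.3 within the TDG KO lists, so it was among the weakest peaks of each. Fgf15 and Etv5 had 1 each, and that of Fgfr1 lay inside the gene, at chr8:25553941-25554140. The TDG KO-only regions other than that of Fgf8 ranked at percentiles from 1.56 to 22.7 within the same lists. No TDG KO-only region was found within 50 kb of Fgf4, Spry2, Spry4, Dusp6 or Etv4. The genes with such a region thus included the 2 genes that rose and 3 genes that were not called.

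Shared regions lay inside Fgfr1, which held 3, and inside Fgfr2, which held 1. A further region at chr7:130267064-130267473 lay 0.256 kb beyond the Fgfr2 start, just outside the promoter printed above, and was in all 4 lists. A region near Fgf15 lay 0.302 kb from the gene and was also in all 4. Spry2 had a shared region 1.91 kb beyond its start, at chr14:105898733-105899275, and Fgf8 had shared regions 3.24 and 4.53 kb from its end at higher coordinates. Dusp6 had no region within 50 kb, as did 2.0% of tested genes with a position, where the median gene had 6. Its nearest regions lay 53.1 kb away at lower coordinates, in some of the lists, and 141.3 kb away at higher coordinates, in all 4.

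**Figure D5:**
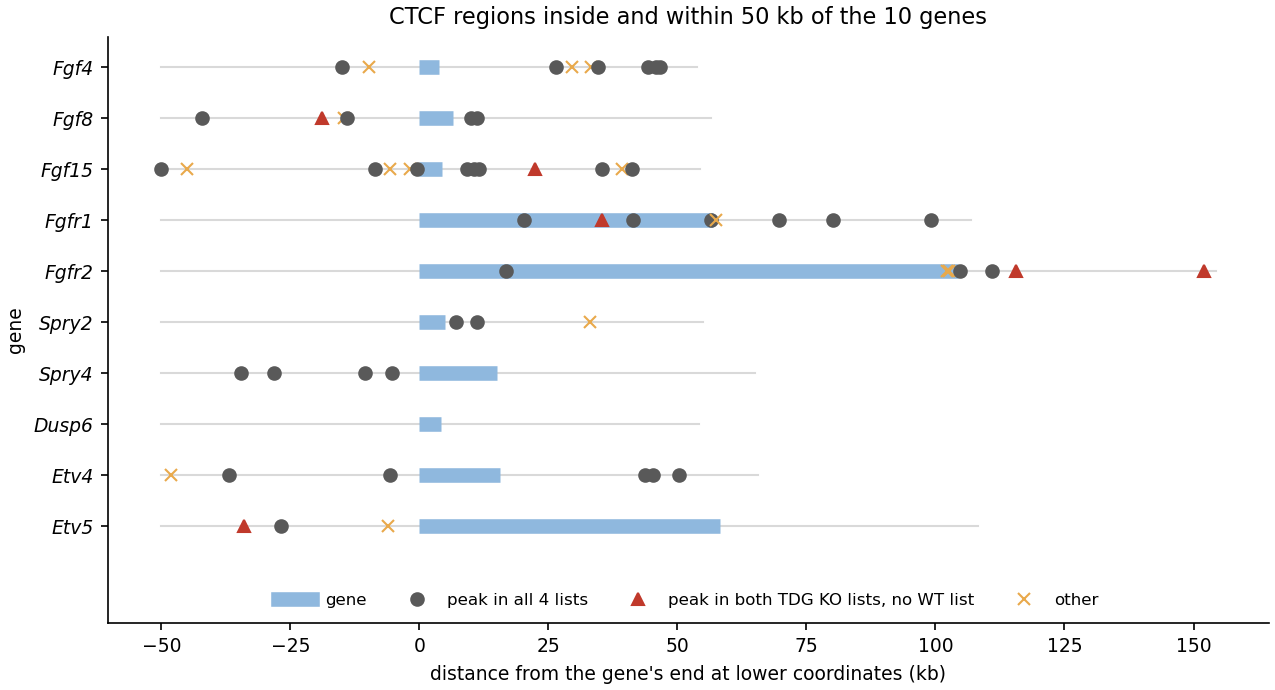
CTCF regions inside and within 50 kb of each of the 10 genes, by distance in kb from the gene's end at lower coordinates, with the gene drawn as a blue bar. Grey circles mark regions in all 4 peak lists, triangles the 6 regions in both TDG KO lists and no WT list, and crosses other combinations. Dusp6 has none.

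The tested genes around each of the 10 were also examined. Etv4 stood out among the 10. Of 165 other tested genes within 5 Mb of it 110 rose and 10 fell, with a median log2 change of 0.38, and Etv4 itself, at 0.08, ranked at the 20.6th percentile of them. CTCF peaks in that window made up 136 and 110.0 per 10000 of the TDG KO lists and 96.6 and 110.0 per 10000 of the WT lists, so TDG KO replicate 1 was higher and TDG KO replicate 2 was not. The part of this neighbourhood in the level of Etv4 was not tested. Around the other 9 genes the median log2 change of neighbours lay between -0.21 at Spry2 and -0.03 at Etv5. Within 1 Mb these medians moved, to -0.39 at Spry2 (3 neighbours), -0.25 at Dusp6 (2), -0.08 at Fgf8 (25), -0.05 at Fgfr2 (6), -0.04 at Fgf15 (6) and -0.04 at Spry4 (13). They turned positive at Fgf4 (0.03, 6 neighbours), Fgfr1 (0.02, 15) and Etv5 (0.10, 15), and that of Etv4 was 0.36 (47). Fgf8, at 1.82, was above all 77 of its tested neighbours (median -0.05), and Fgf4 ranked at the 12.7th percentile of its 71 (median -0.08). Spry2 and Dusp6 had 12 and 17 tested neighbours, with medians of -0.21 and -0.18, and ranked at the 41.7th and 29.4th percentile of them. Of these neighbours 4 of 12 and 7 of 17 fell, and the part of the neighbourhood in either gene's level was not tested.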

How the data were processed

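The authors deposited FPKM per gene and library, and a comparison table with mean FPKM, a log2 fold, a test statistic, a p-value and a q-value per gene, per the file headers. The fold ran WT over TDG KO for 16170 of 16171 genes (tolerance 0.01 log2) and was turned. Tools named in the submitters' processing notes, with no roles, were Bowtie2 2.2.9, MACS2 2.2.1, deepTools, TopHat2 2.1.1, Cufflinks 2.2.1 and Cuffdiff, on mm10. Absolute depth cannot be had from FPKM. Steps between low values put depth relative to WT replicate 1 at 0.993 and 0.933 for the TDG KO libraries and 0.859 for WT replicate 2, and 20537 to 21776 genes were above 0 per library. The sources used here do not say whether counting used strand, so overlapping, antisense and near-identical genes are uncertain.

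The test was limma 3.58.1 (R 4.3.3, trend option, 2-sided) on log2(FPKM + 1) of the 12035 genes whose mean FPKM reached 1, adjusted by Benjamini-Hochberg at a threshold of 0.05. This scale understates fold changes of low genes. The fit was checked on simulated data. The 10 genes, the lists and the tests were chosen with earlier results of these data known. Named were the 10 genes, Tdg, up to 4 called genes of largest absolute change per pathway list, 3 of highest level per marker list and the 3 nearest to Fgf8.

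For CTCF, the authors deposited a peak list per library with a score per peak, but the sources used here state neither its meaning nor the control. The scores only ranked peaks within a list. Peaks were merged at an overlap of at least 1 bp. Gene positions are RefSeq GRCm38.p6, 1-based, for 11325 of 12035 genes, without exons. Alternatives varied pseudocount, filter, scaling, trend, replicate block, single libraries, peak overlap, peak number and window. RNA polymerase II, IgG and input libraries were not analysed here.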

Additional observations from a re-analysis of the deposited data

How the results depend on the processing

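Fgf4, Spry2 and Dusp6 stayed lower in each of 13 settings, and Fgf8 and Fgfr2 stayed higher in each limma setting that included them, with highest adjusted p of 0.0118, 0.0209, 0.0293, 0.0142 and 0.0280. With a mean FPKM of at least 5, 0 members rose, because Fgf8 and Fgfr2 were not tested, and 1 rose in the authors' deposited calls, where Fgfr2 had q = 0.418. Those calls gave 2489 higher and 1961 lower genes, against 2942 and 3554 here. The numbers were 3345 and 2886 without a filter, 3236 and 3167 with upper-quartile scaling and 3293 and 3057 with median-of-ratios scaling. Scaling moved the median of all genes by less than 0.1. Leaving out 1 library gave 2257 to 2533 higher and 2459 to 2780 lower genes. The differences between replicates 1 and 2 in TDG KO and in WT correlated across genes at -0.0157. That single pair of differences cannot show whether same-numbered libraries were prepared together, and the labels give only replicate numbers. The replicate block gave 2 members higher and 3 lower, and 3030 and 3666 genes in all. Fgf7 lost its call in the authors' deposited table, and Fgf10 and Flrt2 lost theirs with a TDG KO library dropped, as given above. The cause was not tested.

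Within 10 kb, 17 CTCF regions were shared and 1 was TDG KO-only. With the strongest peaks, as many per list as in the shortest, 0 were TDG KO-only and 1 was WT-only. Leaving out 1 list gave 6 to 10 TDG KO-only regions (10 without TDG KO replicate 1), 0 to 1 WT-only and 33 to 35 shared. A difference in depth could not be examined for the CTCF lists, and low levels limit Fgf8 in WT and Fgf15.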
